A study of Arabidopsis thaliana with 6 samples.

Results

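The data describe DNA methylation at 3 short places in the Arabidopsis thaliana genome, each annotated to 2 neighbouring genes and each holding differentially methylated regions in more than 1 sequence context. They are the place upstream of RAD51C (AT2G45280) at the end of GCP1 (AT2G45270) on chromosome 2, the place between CYCB1;1 (AT4G37490) and AT4G37500 on chromosome 4, and the place between RPL23A (AT3G04400) and AT3G04390 on chromosome 3. The members are all entries annotated to these 6 genes in the authors' table of regions that differ between genotypes, 22 of 18828 entries. They come down to 9 of 9213 regions, 3 at each place. Of the 9, 5 were lower and 4 higher in the mutant, where 89.8% of all regions were lower and 10.2% higher. The genes were chosen by the large differences between the mean levels of the 2 genotypes, so the levels of each region, and every rank made from them, are given as a description with no test.

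Whole-genome bisulfite sequencing was run on 6 libraries, 3 from wild-type plants (accession Col-0) and 3 from the mutant rbp-ko-1, also labelled KO27. The series title ties this mutant to RBP45D, an RNA-binding protein, and to RNA-directed DNA methylation. Plants of both genotypes were 26 days old and had been kept on soil under long days (16 h light, 8 h dark). A single mutant line was studied, and the labels do not say whether a library came from 1 plant or from a pool. The table holds 1 mean methylation level per genotype and region over the 3 libraries. It gives no value per library and no read depth, so no level below carries an SD, and whether a difference exceeds the spread between libraries cannot be tested. DNA came from plants with many cell types, where a lower mean level in all cells and loss of methylation in some cells cannot be told apart.

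Plants methylate cytosine in the contexts CG, CHG and CHH, H standing for any base but G. CG methylation is copied onto the new strand after replication, CHG methylation is maintained together with a repressive histone mark, and CHH methylation has to be set anew, largely under the guidance of small RNAs or of repressive chromatin. Places with methylation in all contexts are typical of transposons and repeats, whereas CG methylation on its own is common inside active genes. RAD51C acts in repair of DNA breaks and in meiosis. CYCB1;1 is a mitotic cyclin made before cell division and after DNA damage. RPL23A is a protein of the large ribosomal subunit, listed as emb2171 (embryo defective) in RefSeq. The table describes the product of GCP1 as a probable mitochondrial enzyme of tRNA modification. AT4G37500 and AT3G04390 carry the same description, aldehyde oxidase/xanthine dehydrogenase, molybdopterin binding protein.

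At RAD51C, all 3 contexts were methylated in Col-0 and almost without methylation in rbp-ko-1. The CG region had 53.4% in Col-0 against 1.36% in rbp-ko-1 over 20 cytosines. The CHG region had 48.5% and 0.424% over 28 cytosines. The CHH region had 28.8% and 0.148% over 136 cytosines. The differences, as rbp-ko-1 minus Col-0, were thus -52.1, -48.1 and -28.6 percentage points. In the table as a whole 74.7% of CG, 89.1% of CHG and 97.4% of CHH regions were lower in rbp-ko-1, so the direction at RAD51C is the common one in every context. Its size was less so. By the ratio of the rbp-ko-1 level to the Col-0 level, RAD51C ranked 27th from the lowest of 2174 lower CG regions, 1st of 419 CHG regions and 2nd of 5680 CHH regions. The median of this ratio was 0.300 in lower CG regions, 0.486 in lower CHG regions and 0.354 in lower CHH regions, against 0.0254, 0.00873 and 0.00515 at RAD51C. The ratios at RAD51C rest on low rbp-ko-1 levels, under 1% in CHG and CHH and 1.36% in CG. At such levels unconverted cytosines can weigh, and the depth is unknown. Of the 2174 lower CG regions, 730 were under 2% in rbp-ko-1 and 398 had a lower level than the RAD51C region. By the absolute difference the CG, CHG and CHH regions ranked 26th, 2nd and 2nd. By the area statistic of the authors' deposited table they ranked 44th, 4th and 283rd.

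**Figure D1:**
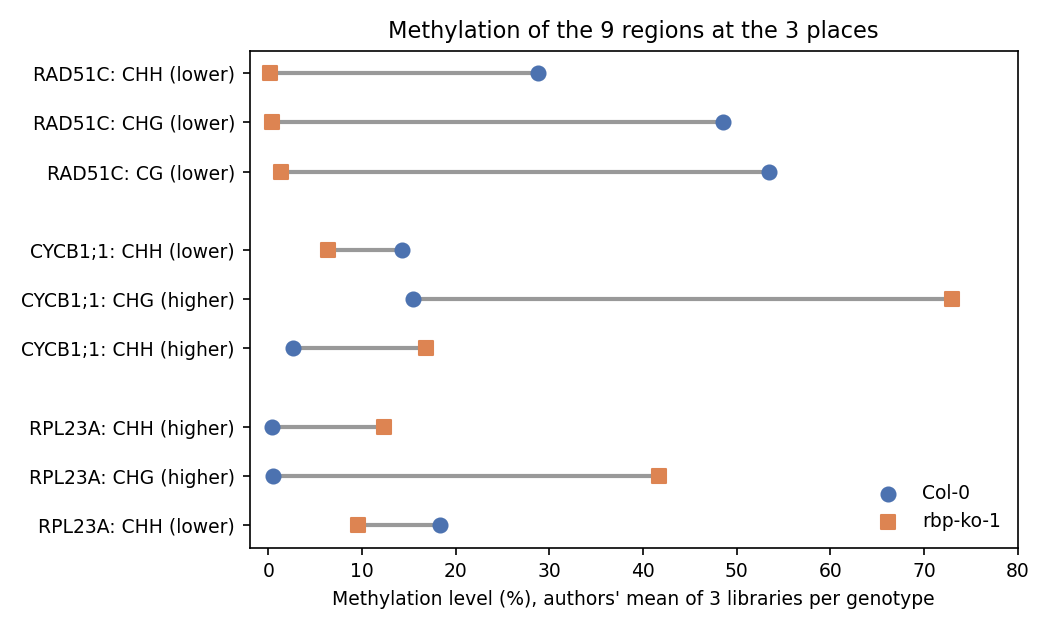
Methylation level in percent (x axis) of each of the 9 regions (y axis, by place, context and direction). Blue circles are the authors' means over 3 Col-0 libraries and orange squares those over 3 rbp-ko-1 libraries, with no error bars because no values per library are given. At RAD51C all 3 regions end between 0.148% and 1.36% in rbp-ko-1, while at CYCB1;1 and RPL23A a CHG and a CHH region that are higher in rbp-ko-1 stand beside a CHH region that is lower.

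The regions at RAD51C were nested around a common core. The CHH region spanned chromosome 2, 18669468 to 18669974 (TAIR10, as are all coordinates here), a length of 507 bp. Inside it lay the CHG region, 18669541 to 18669822 (282 bp), which began 73 bp further in and ended 152 bp earlier. Inside that lay the CG region, 18669574 to 18669763 (190 bp), set in by another 33 bp and 59 bp. In the table all 3 regions were annotated to the RAD51C promoter and to exonic and 3′ UTR sequence of GCP1, and the longer CHH region also to the transcription end site of GCP1. The place therefore takes in the end of GCP1 and DNA upstream of RAD51C.

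**Figure D2:**
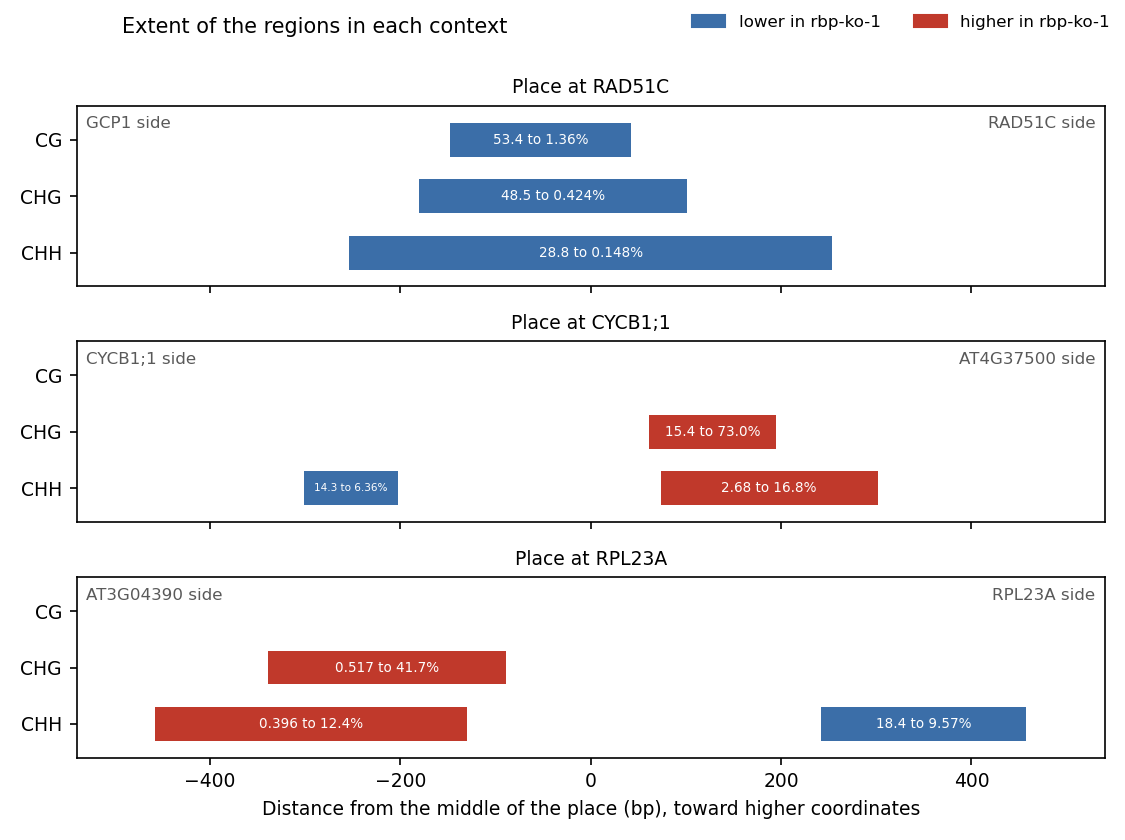
Extent of each region (bars) along the x axis, in bp from the middle of the place and toward higher coordinates, with the contexts as rows. Blue bars are regions lower in rbp-ko-1 and red bars regions higher, each with its Col-0 and rbp-ko-1 levels, and grey words give the gene on each side. The 3 bars at RAD51C are nested, and at the other 2 places the red CHG and CHH bars overlap while a blue CHH bar stands 264 bp and 330 bp away from the CHG bar.

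Differential regions in all contexts at a single place were rare in the table. When regions of any context that share at least 1 bp were merged, the 9213 regions formed 8473 places, of which 539 (6.36%) held at least 2 contexts and 101 (1.19%) all 3. All regions were lower in rbp-ko-1 at 98 of these 101 places, among them 53 in the mitochondrial genome and its large copy on chromosome 2. The Col-0 level was highest in CG and lowest in CHH at 94 of the 98 places, as at RAD51C. Nesting of CG within CHG within CHH was found at 9 of the 98. A level under 2% in every context in rbp-ko-1 was found at 5, and both properties together at 2, counting RAD51C in each case. Over the 45 places outside the mitochondrial sequences, the median levels were 69.4% in Col-0 against 26.5% in the mutant for CG, 33.9% against 13.4% for CHG, and 8.29% against 1.78% for CHH.

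Among these 45 places, RAD51C was rich in CHH and CHG methylation relative to CG. Its CHH level in Col-0 ranked 3rd from the top of the 45 and its CHG level 11th, but its CG level only 28th. The Col-0 level in CHG was 1.69 times that in CHH, against a median of 3.80 times, and 2 of the 45 places had a smaller value. The CG level was 1.10 times the CHG level, against a median of 1.62 times, with 3 places smaller. In rbp-ko-1 the levels at RAD51C ranked 5th from the bottom in CG, 4th in CHG and 2nd in CHH. Of the 5 places under 2% in every context, RAD51C had the highest Col-0 level in each context. The other 4 had 8.21% to 39.0% in CG, 6.19% to 27.2% in CHG and 4.26% to 19.5% in CHH.

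Between CYCB1;1 and AT4G37500, non-CG methylation was higher in rbp-ko-1. The CHG region (chromosome 4, 17624962 to 17625094, 133 bp) had 15.4% in Col-0 against 73.0% in rbp-ko-1 over 10 cytosines, a difference of 57.6 points. The overlapping CHH region (17624974 to 17625201, 228 bp) had 2.68% and 16.8% over 55 cytosines, a difference of 14.1 points. Only 10.9% of the CHG regions and 2.64% of the CHH regions of the table were higher in rbp-ko-1, so this direction is the rarer one in both contexts. The gain in CHG was the largest of the 51 higher CHG regions, and no other of them reached as high a level in rbp-ko-1. By the ratio of levels this CHG region ranked 22nd of the 51. No CG region was listed here, which does not show that CG methylation was equal.

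A CHH region on the CYCB1;1 side of the same intergenic stretch was lower in rbp-ko-1. It covered 17624599 to 17624697 (99 bp) and had 14.3% in Col-0 against 6.36% in rbp-ko-1 over 20 cytosines, a difference of -7.93 points. The rbp-ko-1 level was 0.445 times the Col-0 level, against the median of 0.354 in lower CHH regions. A stretch of 264 bp lay between it and the CHG region. All 3 regions were annotated as promoter of both CYCB1;1 and AT4G37500.

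Between RPL23A and AT3G04390 the same kinds of change were found, from a lower starting level. The CHG region (chromosome 3, 1166000 to 1166250, 251 bp) had 0.517% in Col-0 against 41.7% in rbp-ko-1 over 16 cytosines, a difference of 41.1 points. The CHH region (1165882 to 1166209, 328 bp) had 0.396% and 12.4% over 73 cytosines, a difference of 12.01 points. The ratio of the rbp-ko-1 to the Col-0 level was 80.5 in CHG, the largest among the higher CHG regions, and 31.3 in CHH, the 3rd largest among 154. Such ratios rest on Col-0 levels under 1%, where unconverted cytosines can weigh and where the depth is unknown. By the absolute difference the CHG region ranked 3rd of 51 and the CHH region 17th of 154. At CYCB1;1, where Col-0 was already methylated, the ratios were 4.74 and 6.28. As at CYCB1;1, no CG region was listed.

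Here too a CHH region was lower on the other side of the gain. It lay 330 bp beyond the CHG region (1166581 to 1166796, 216 bp) and had 18.4% in Col-0 against 9.57% in rbp-ko-1 over 62 cytosines, a difference of -8.78 points and a ratio of 0.522. All 3 regions were annotated as promoter of both RPL23A and AT3G04390. The 2 lower CHH regions, at CYCB1;1 and RPL23A, ranked 1467th and 1090th of 5680 by the absolute difference, where the CHH region of RAD51C ranked 2nd. By the ratio of levels they ranked 4479th and 5086th, and they ranked 5073rd and 3077th by the area statistic of the authors' deposited table.

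**Figure D3:**
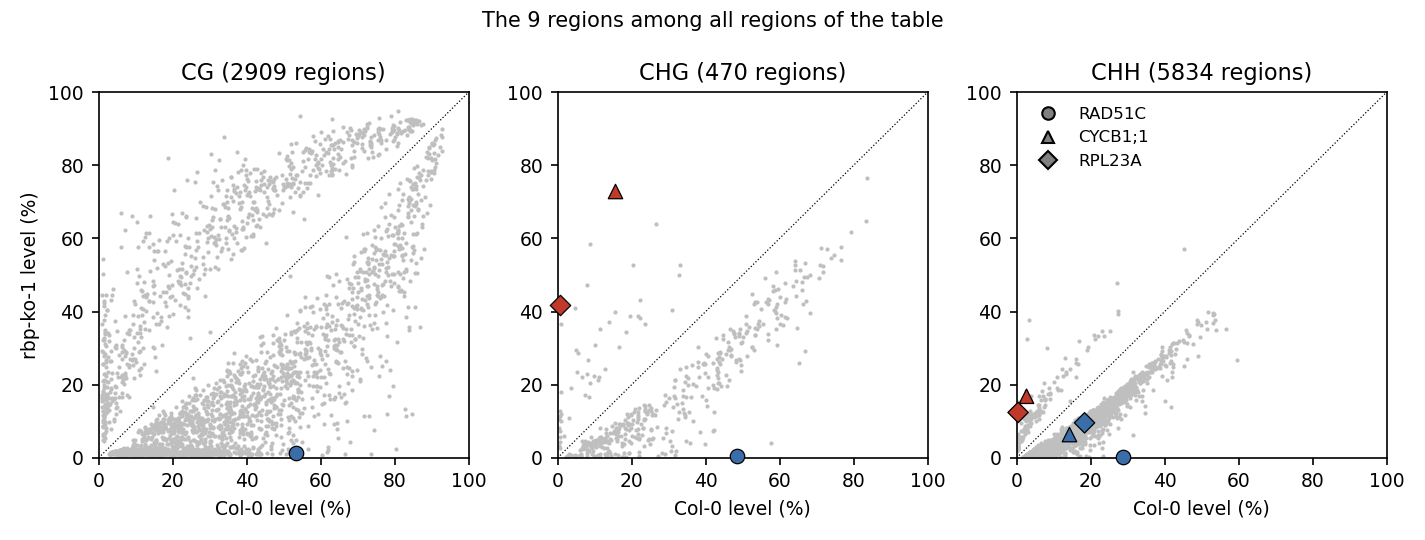
Level in rbp-ko-1 (y axis, %) against level in Col-0 (x axis, %) for all 2909 CG, 470 CHG and 5834 CHH regions of the table (grey points), with the 9 regions as large symbols by place, blue where lower and red where higher in rbp-ko-1. The dotted line marks equal levels. The RAD51C regions lie on the floor of each panel at 53.4%, 48.5% and 28.8% in Col-0, the CHG region of CYCB1;1 is the highest red point at 73.0%, and the 2 smaller CHH losses lie within the grey band of lower regions.

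The places at CYCB1;1 and RPL23A were laid out alike, in mirror image along the chromosome. By gene order in RefSeq, CYCB1;1 lies at lower coordinates than AT4G37500, and AT3G04390 at lower coordinates than RPL23A. In both cases the lower CHH region lay on the side of the cyclin or ribosomal protein gene, and the gains on the side of the aldehyde oxidase-like gene. The CHG gain reached further toward the lower CHH region than the CHH gain did, by 12 bp at CYCB1;1 and 41 bp at RPL23A. The CHH gain reached further toward the aldehyde oxidase-like gene, by 107 bp and 118 bp. The contexts overlapped by 121 bp at CYCB1;1, 91.0% of the shorter region, and by 210 bp at RPL23A, 83.7% of the shorter region. The whole arrangement spanned 603 bp and 915 bp. Of 7699 genes in the table, AT4G37500 and AT3G04390 were the only 2 with their description, which was seen after the places had been chosen. The table holds no sequence, so whether the DNA of the 2 places is related, and whether reads could map to both, was not tested.

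The table held 12 places at which CHG and CHH regions overlapped and all regions were higher in rbp-ko-1. CYCB1;1 and RPL23A ranked 1st and 2nd of these by the CHG difference and 2nd and 4th by the CHH difference. At the other 10 places the CHG difference ran from 15.4 to 39.1 points with a median of 24.0, and the CHH difference from 5.23 to 15.1 points with a median of 8.61. RPL23A had the lowest Col-0 levels of the 12 in both contexts. The other 10 had 0.853% to 33.0% in CHG and 2.06% to 16.9% in CHH. In rbp-ko-1 the CHG level was 4.34 times the CHH level at CYCB1;1 and 3.36 times at RPL23A, within the range of 1.58 to 5.002 times at the others. A CG region was part of 3 of the 12 places, and 9 had none.

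**Figure D4:**
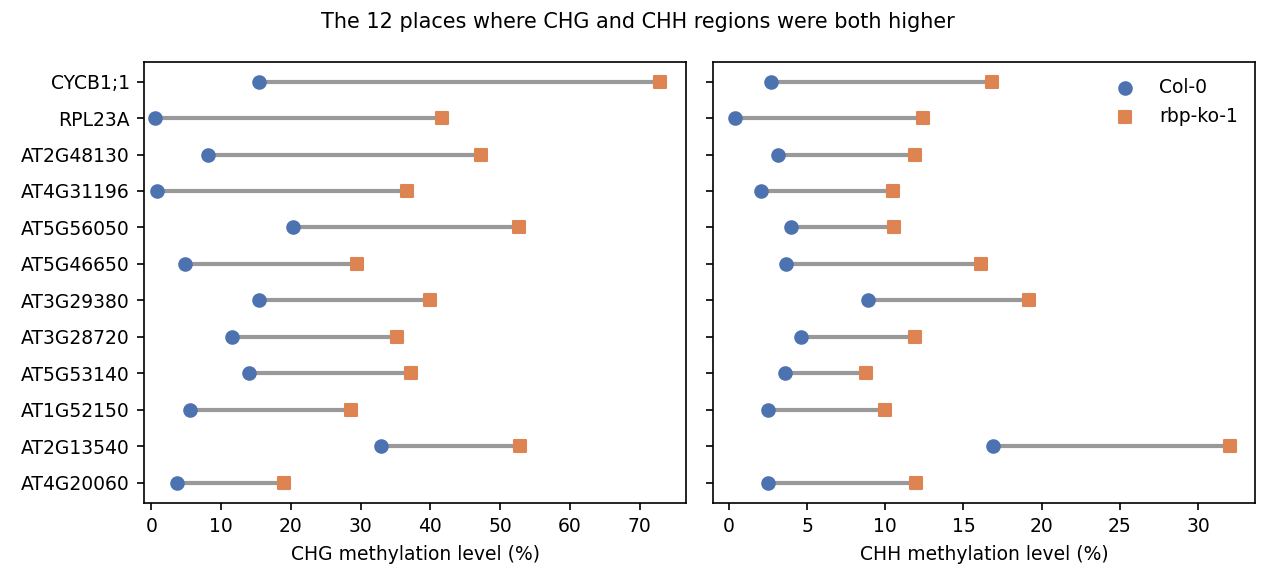
CHG (left) and CHH (right) methylation level in percent (x axes) at the 12 places where regions of both contexts were higher in rbp-ko-1 (y axis, each by 1 annotated gene, in order of the CHG difference). Blue circles are Col-0 and orange squares rbp-ko-1, each the authors' mean over 3 libraries. CYCB1;1 ends at 73.0% in CHG, above the 19.0% to 52.8% of the 10 other places, and RPL23A starts from the lowest levels of all, 0.517% in CHG and 0.396% in CHH.

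Nearby CHH loss beside a non-CG gain was not confined to these places. A lower CHH region lay within 1 kb of 22.9% of the 205 higher CHG and CHH regions of the table, and of 5 of the 12 places, including CYCB1;1 and RPL23A.

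Within 10 kb of the RAD51C place lay 2 other regions, within 10 kb of CYCB1;1 none and within 10 kb of RPL23A 1. Of all 8473 places of the table, 83.0% had another region within 10 kb, with a median of 3 such regions (quartiles 1 and 5). The median was 3 for places on chromosomes 2 and 3 and 2 on chromosome 4, with a first quartile of 1 on each. It was 21 for the 163 places in the mitochondrial genome. Those places were merged only where regions overlap, so the 2 kinds of count are not alike. The lower CHH regions at CYCB1;1 and RPL23A, left out above as members, would there count as other regions beside the gains. On the RAD51C side, 5456 bp from the edge of the RAD51C place, a CG region was lower. It had 44.5% in Col-0 against 18.7% in rbp-ko-1 over 11 cytosines. This CG region lay in an exon of AT2G45290, a transketolase gene, and the promoter of AT2G45300. On the GCP1 side, 9654 bp away, a CHG region was higher, with 22.3% and 43.1% over 13 cytosines, in the non-coding gene AT2G45245 and the promoters of AT2G45243 and AT2G45250. The RAD51C place and its nearest CHG neighbour thus differed in opposite directions. On the RPL23A side, 4017 bp from the edge of the RPL23A place, a CHH region was lower, with 39.4% and 27.2% over 37 cytosines. It lay in the promoter of AT3G04420 (NAC048), a NAC-domain transcription factor gene.

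Beyond 10 kb the distances varied by place and context. At CYCB1;1 the nearest other CHH regions lay 112.7 kb and 86.8 kb away on either side, the nearest CHG regions 542.6 kb and 90.02 kb away, and the nearest CG regions 53.2 kb and 71.997 kb away. At RPL23A the nearest other CHG regions lay 1036.6 kb and 391.7 kb away and the nearest CG regions 29.8 kb and 107.8 kb away, and on the AT3G04390 side the nearest CHH region lay 355.5 kb away. At RAD51C the next CHH regions were 13.96 kb and 32.9 kb away, the closer of them a lower region of 4191 bp in the promoter of AT2G45240 (MAP1A), a methionine aminopeptidase gene, with 19.2% in Col-0 against 7.48% in rbp-ko-1. Of the 10 protein-coding genes nearest each gene pair, 5 on each side in RefSeq order, 5 were annotated to a region at RAD51C, 0 at CYCB1;1 and 1 at RPL23A. The 5 at RAD51C shared 3 regions, since the CHG and the CG region named above were each annotated to 2 of them. Of all 27550 protein-coding genes, 22.0% had a region in the gene or promoter.

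**Figure D5:**
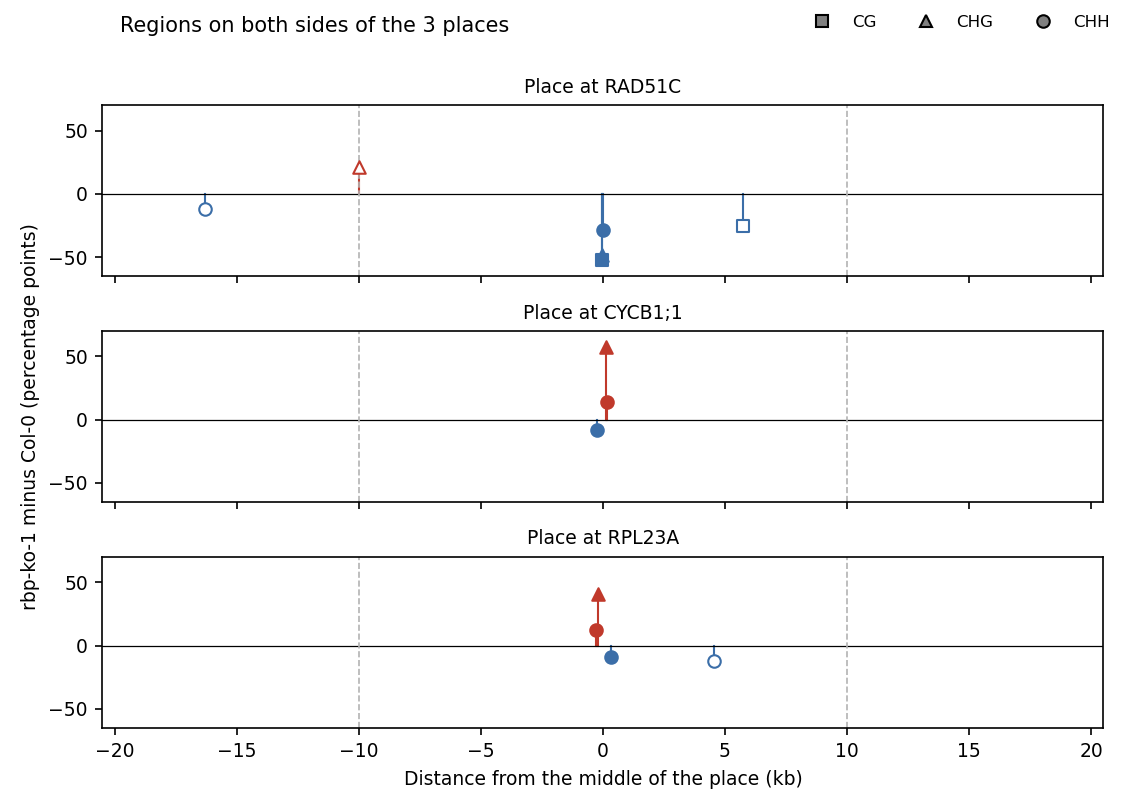
Difference in methylation, rbp-ko-1 minus Col-0 in percentage points (y axis), of each region within 20 kb of a place (x axis, kb from its middle). Filled symbols are the 9 regions and open symbols other regions, squares CG, triangles CHG and circles CHH, blue lower and red higher, with dashed lines at 10 kb from the middle. RAD51C has 2 other regions within 10 kb of its edges, a lower CG and a higher CHG region, RPL23A has 1 lower CHH region, and CYCB1;1 has none.

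Genes related by function to the 6 were listed next to them for comparison. Of 16 other genes of homologous recombination and DNA damage signalling, 4 (RAD51B, RAD51D, DMC1 and NBS1) carried a region, 3 of them lower and 1 higher, where 19.0% of all protein-coding genes carried a lower and 4.08% a higher region. RAD51B (AT2G28560) and RAD51D (AT1G07745), which also act in DNA repair, were lower in CG. RAD51B had 53.8% in Col-0 against 18.5% in rbp-ko-1 over 7 cytosines in an exon and the 3′ UTR. RAD51D had 10.4% and 1.37% over 13 promoter cytosines, close to the 1.36% left in CG at RAD51C but from a much lower Col-0 level. Such a low level was not particular to these genes, since 730 of the 2174 lower CG regions were under 2% in rbp-ko-1. DMC1 (AT3G22880), the recombinase specific to meiosis, had 3 lower CHH regions in its promoter, from 15.4% to 5.98% in the longest, with the others at 13.0% and 6.95% and at 12.2% and 3.85%. NBS1 (AT3G02680), part of the complex that senses DNA breaks, was higher in an exonic CG region, with 65.0% and 78.6%. The median difference over these 6 regions was -8.70 points, against -6.49 points over all 9213 regions. The 2 sets differ in their contexts. The only CHH regions among the 6 were the 3 of DMC1, whereas 5834 of the 9213 regions were CHH. Among lower regions of the table the median difference was -18.3 points in CG and -5.82 points in CHH.

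Of 12 other B-type cyclins and their kinases, 2 carried a region, both lower. Among all protein-coding genes 22.0% carried a region, 19.0% a lower and 4.08% a higher one. No gain was thus listed for these 12 genes, but gains were uncommon in all genes too. CDKB2;2 (AT1G20930), a kinase of the G2 to M transition, had 67.3% in Col-0 against 20.3% in rbp-ko-1 in an exonic CG region of only 5 cytosines. CYCB2;1 (AT2G17620) had 4.93% and 1.35% in a promoter CHH region of 46 cytosines. The table gives the name RPL23A to 2 genes, AT3G04400 and AT2G33370. AT2G33370 carried 2 regions, both lower, a CG region in an exon and the 3′ UTR with 14.6% and 1.17% over 29 cytosines and a promoter CHH region with 8.30% and 2.83% over 33 cytosines. The third gene of this ribosomal protein, AT1G04480, carried none. AT4G22720, a relative of GCP1, carried none either.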

How the data were processed

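Whole-genome bisulfite sequencing of 3 Col-0 and 3 rbp-ko-1 libraries was deposited as 1 table of regions. The genome build was TAIR10 and the tools named were Bismark, MethylDackel, Trimmomatic and FastQC, per the submitters' processing notes. The sources used here do not give the region caller, its thresholds, the coverage filter or the promoter length. The authors deposited each methylation level as a fraction, averaged over the libraries of a genotype, and it is printed here in percent. The area statistic, a signed score deposited by the authors, was used only to rank regions within a context. Depth is unknown. Incomplete bisulfite conversion can raise low levels, and its share was not tested. At RAD51C the rbp-ko-1 level was lowest in CHH (0.148%) and highest in CG (1.36%).

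Entries of 1 region were counted once. Differences, ratios, ranks, overlaps (at least 1 bp), distances between outer edges and places were computed in Python 3.11.15 with pandas 2.3.3 and numpy 2.4.6, and merging was tested on simulated regions. The mitochondrial copy was taken as 3.2 to 3.6 Mb of chromosome 2. RefSeq (TAIR10.1) gave gene names, types and order, and matched all 6 member genes and all 35 list genes; 1 further gene of the lists is not reported here. No test was run, because no value per library is given. The members and gene lists were chosen with earlier results of these data known. The text names the 6 genes, all genes annotated to regions within 10 kb, list genes with a region, and the relatives of RPL23A and GCP1 without one. AT2G45240 (MAP1A), beyond 10 kb, and the genes that label the other places with higher CHG and CHH regions in a plot were added after their values were seen. Alternatives were minimum cytosines, difference and length, the area statistic, other windows and overlaps, other rankings, gene bodies only, and leaving out mitochondrial sequences.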

Additional observations from a re-analysis of the deposited data

How the results depend on the processing

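No paired analysis was possible because the table gives 1 mean per genotype, so a replicate block, leaving out a replicate, or a stricter coverage minimum could not be run. Of 52 recalculated counts 38 stayed within 1.5 times, and of 36 recalculated ranks of single regions 19 did. Among the 9 regions, 5 were lower and 4 higher. At least 10 points, at least 20 points or the larger area statistics left 3 lower, all at RAD51C, and at least 20 points left 2 higher, both in CHG. A window of 5 kb left 0 flanking regions at RAD51C, and 20 points left 0 at RPL23A. Places with 2 contexts went from 438 to 286 and places with CHG and CHH gains from 12 to 7 with at least 10 cytosines per region, and places with 3 contexts from 101 to 48 without the mitochondrial sequences. Of the recombination genes 2 of 4, and of the cyclins and kinases 1 of 2, had a region in gene bodies only. At 20 points or more, 1 gene was left in each of these lists. The overlap of contexts was the same in number at all 3 places under each setting tried. The ranks that follow are set against ranks by the absolute difference. By the area statistic of the authors' deposited table the CHH region of RAD51C ranked 283rd of 5680, not 2nd, and its CHG region 4th, not 2nd. By ratio the CHG gain of CYCB1;1 ranked 22nd of 51, not 1st, and its CHH gain 39th of 154, not 9th. The CHH gain of RPL23A ranked 2nd by the area statistic of the authors' deposited table and 3rd by ratio, not 17th. Unknown depth limits every level, and most of all those under 1%.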
